A study of Mus musculus with 8 samples.

Results

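The CREB3 family of transcription factors was examined in neuro-intermediate lobes of mouse pituitaries. Its members here are Creb3, Creb3l1, Creb3l2 and Creb3l4, taken by gene symbol from the FPKM table and matched by Ensembl identifier to the count table, which gave 4 of 48526 genes. RNA-seq was carried out on 8 libraries, each from a pool of 5 lobes of C57B6 mice, which were males of 3 months per the study's methods. WT lobes carried no transgene. ACreb3l2 lobes carried POMC_ACreb3l2, AXBP1 lobes carried POMC_AXBP1, and ACreb3l2/AXBP1 lobes carried both, with 2 libraries in each of the 4 groups. Each transgene codes for an acidic dominant negative protein, which pairs with Creb3l2 or XBP1 through the leucine zipper and keeps it off DNA. Both are driven by the rat POMC promoter, which is active in melanotropes of this lobe and in corticotropes of the anterior lobe, and the data of each transgene come from 1 line. The dominant negative acts on a protein, and the group names are those of the labels.

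Proteins of the CREB3 family are bZIP factors (basic region and leucine zipper) that are made as anchored proteins of the endoplasmic reticulum (ER). When moved to the Golgi they are cut by the proteases encoded by Mbtps1 and Mbtps2, and the freed N-terminal part enters the nucleus and binds DNA. Members are best known for raising the transport capacity of secretory cells: Creb3l1 (OASIS) in bone, Creb3l2 (BBF2H7) in cartilage, Creb3 (Luman) in several cell types, and Creb3l4 (AIbZIP, Tisp40) in prostate and spermatids. Melanotropes, the POMC cells of this lobe, release large amounts of peptide hormone.

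Among the members, Creb3l2 and Creb3 were abundant, whereas Creb3l1 and Creb3l4 were scarce. In the lobes with both transgenes Creb3, Creb3l1 and Creb3l2 fell, by 40%, 66% and 38% respectively, and Creb3l4 was not called. The call of Creb3 was kept under all 16 processing alternatives, that of Creb3l1 under 14 and that of Creb3l2 under 7. With ACreb3l2 alone Creb3 fell by 31.9%, a call kept under 8 of the alternatives. There edgeR called no other member, while DESeq2 also called Creb3l1. With AXBP1 alone neither tool called a member, where edgeR called 0 of all 15580 genes and DESeq2 73. Creb3l2 itself, which codes for the factor targeted by ACreb3l2, was counted at nearly the same level in ACreb3l2 as in WT. Reads of the transgene may be among these counts, so the level of the endogenous gene was not measured apart.

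Some sequences bear on how these values can be read. The ACreb3l2 transgene carries the leucine zipper of Creb3l2, which lies in exons 7, 8 and 9 of the gene (GENCODE M21, mm10, minus strand, chr6:37354751-37354758, chr6:37353557-37353625 and chr6:37336230-37336314, with 8, 69 and 85 bases). The primers listed with the study's reagents matched positions 1313 to 1474 of the 7082-base Creb3l2 transcript, or codons 323 to 376. The sequence is shown because transcripts of the transgene hold the same bases as the endogenous gene here, and capitals mark the bases matched by the cloning primers.
Creb3l2 zipper stretch: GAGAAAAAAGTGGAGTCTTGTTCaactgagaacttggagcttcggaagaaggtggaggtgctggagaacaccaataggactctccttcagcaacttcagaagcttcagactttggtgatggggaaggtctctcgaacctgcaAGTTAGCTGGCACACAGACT
These 162 bases make up 2.22% of the annotated exon bases of Creb3l2, and none of their 113 windows of 50 bases occurred in a transcript of another gene. By the study's description, lines were kept in which mRNA of the transgene exceeded that of the endogenous factor several-fold. The stretch can thus hold a larger share of reads than of bases. Reads from this stretch in lobes with ACreb3l2 cannot be told apart from those of endogenous Creb3l2.

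The study's reporter for Creb3l2 held 3 copies of a response element, shown with its core TGACGTGG in capitals.
Creb3l2 response element: agggcTGACGTGGcgtgt
The core was searched on both strands in windows from 250 bases before to 50 bases after the RefSeq starts (GRCm38.p6), together with its overlapping parts TGACGT and ACGTGG. TGACGTGG was present in 0.676% of 32851 windows and in none of those of Creb3, Creb3l2 and Creb3l4. ACGTGG, present in 8.31% of windows, occurred at -106 from the start of Creb3, and TGACGT, present in 7.51%, at -196 from the start of Creb3l2. These are RefSeq starts, and the stretch of Creb3 lies inside the longer gene span of GENCODE M21 given further on. Creb3l1 was not searched. The motif is in capitals in the following 30-base stretches, chr4:43562540-43562569 (plus strand) and chr6:37442327-37442356 (minus strand). The windows of Creb3l4 held none of these letters.
Creb3 promoter stretch: atagcccccgggACGTGGcgcagcccagga
Creb3l2 promoter stretch: ggcgttccccagTGACGTaaaagaccctct
A match in such a window is a description of letters and says nothing of binding.

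The tissue was first checked by its markers. Melanotrope genes (Pomc, Pcsk2, Pcsk1, Tbx19, Pax7, Drd2, Scg2 and Scg5) summed to between 68617 and 170538 CPM, reads scaled to a common library total, in a library, pituicyte and astroglial genes to between 1142 and 1967, and anterior lobe genes, mainly Gh and Prl, to between 2469 and 7105. No marker on the lists was at 0 in every library, so the libraries labelled as melanotropes also held RNA of pituicytes, vessels and the anterior lobe. The melanotrope sum ran from 115432 to 170538 CPM in WT and from 68617 to 92982 in ACreb3l2/AXBP1, and without Pomc from 8965 to 11128 and from 5588 to 7848. All 8 melanotrope genes were lower in ACreb3l2/AXBP1 than in WT and 2 of them were called, while pituicyte and astroglial genes were higher in 8 of 8, with 2 called. Endothelial genes were higher there in 6 of 6 and those of fibroblasts and pericytes lower in 1 of 8, with medians of 0.51 and 0.31 and none called. In ACreb3l2 alone all 8 melanotrope genes were lower (median log2 change -0.20) and all 8 pituicyte and astroglial genes higher (0.34), with none called. In AXBP1 alone the melanotrope median was -0.28 (6 of 8 lower), and pituicyte and astroglial genes were lower in 1 of 8 (median 0.20). Endothelial genes were higher there in 6 of 6 (median 0.42) and those of fibroblasts and pericytes in 8 of 8 (0.31). Anterior lobe genes summed to between 2469 and 2594 CPM in AXBP1 against 4789 to 7105 in WT, with no gene called. These shifts move with the changes of the members and of the listed genes given next, and their part in them was not tested. In bulk lobes, fewer cells of a type and less RNA per cell cannot be told apart.

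Levels between genes are compared on the FPKM scale, fragments scaled to transcript length and to the mapped fragments of a library. Creb3l2 (ENSMUSG00000038648, chr6:37327255-37442146, minus strand) had 106 and 101 FPKM in the WT libraries. Creb3 (ENSMUSG00000028466, chr4:43562332-43567060, plus strand) had 54.5 and 67.5 FPKM in WT, Creb3l1 (ENSMUSG00000027230, chr2:91982328-92024502, minus strand) had 1.73 and 3.32, and Creb3l4 (ENSMUSG00000027938, chr3:90237500-90243512, minus strand) had 1.69 and 1.76. All 4 are protein-coding genes. Of 17023 coding genes listed above 0 in WT, Creb3l2 exceeded 96.8% and Creb3 93.6%, whereas Creb3l1 exceeded 35% and Creb3l4 30.9%. Among 20 bZIP factors measured, Creb3l2 ranked 4 by mean FPKM in WT, after Xbp1 (163 FPKM), Atf4 (130) and Crem (121), and Creb3 ranked 6. Creb3l1 and Creb3l4 ranked 18 and 19, above only the liver paralog Creb3l3 (0.186 FPKM).

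The order Creb3l2 above Creb3 above both scarce members held in 8 of 8 libraries, and also when reads per kilobase of annotated exon were computed from the counts. Creb3l2 took from 57.9% to 68.5% of the summed FPKM of the 4 members and Creb3 from 29.4% to 39.3%. The ratio of Creb3l2 to Creb3 was 1.95 and 1.5 for WT, 2.3 and 2.33 with ACreb3l2 alone, 1.47 and 1.71 with AXBP1 alone, and 1.93 and 1.57 with both transgenes. The ACreb3l2 libraries thus lay above all others in this ratio, to which reads of the transgene may add. The scarce members changed places: Creb3l4 was below Creb3l1 in both WT libraries, with ratios of 0.974 and 0.531, and above it in all 6 transgenic libraries. There the ratio of Creb3l4 to Creb3l1 was 1.61 and 1.8 with ACreb3l2 alone, 1.6 and 1.53 with AXBP1 alone, and 1.95 and 4.24 with both. The first WT library was close to equality, and the second ACreb3l2/AXBP1 library stood far above the rest.

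**Figure D1:**
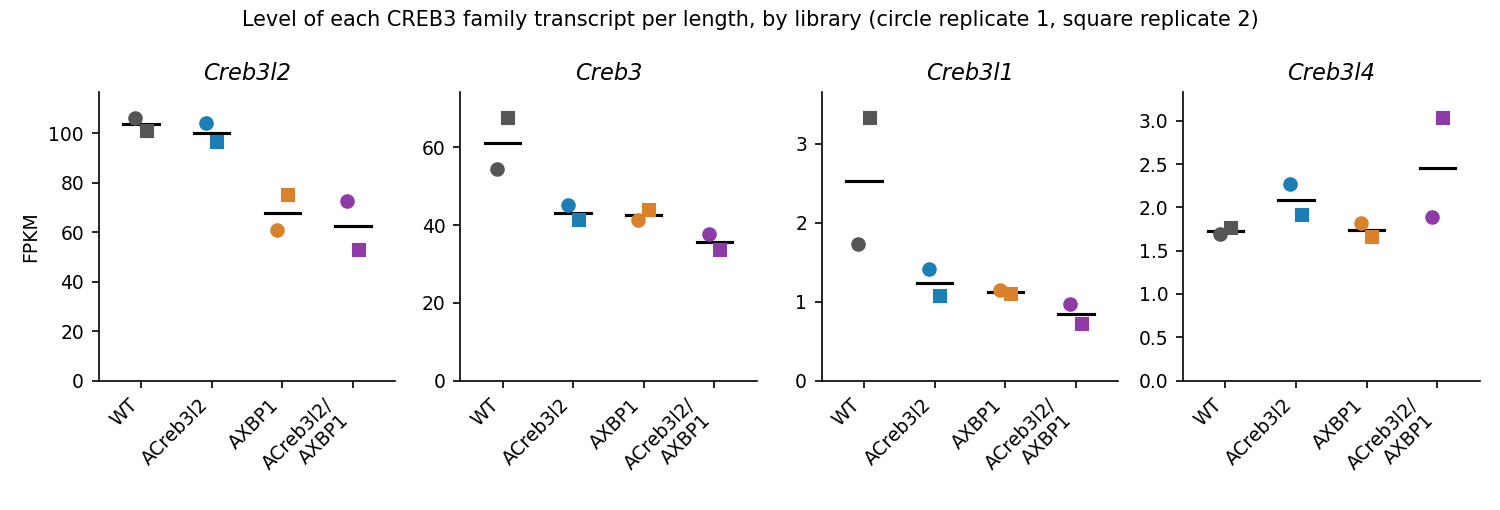
FPKM of each family member (y axis, 1 panel per gene, each with its own scale from 0) in the 4 groups (x axis), with circles for replicate 1, squares for replicate 2 and a line at the group mean. Creb3l2 is near 100 FPKM in WT and ACreb3l2 and lower in both groups with AXBP1, and Creb3l1 is at 3.32 FPKM in the second WT library only.

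**Figure D2:**
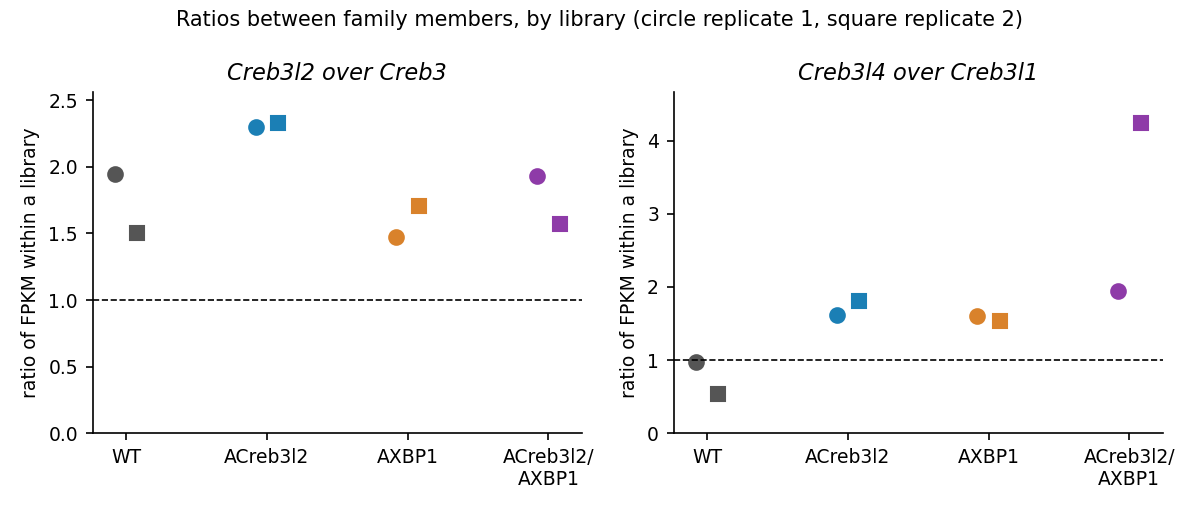
Ratio of FPKM within a library (y axis) for Creb3l2 over Creb3 and for Creb3l4 over Creb3l1, by group (x axis), with circles for replicate 1 and squares for replicate 2. The dashed line marks equal FPKM, and Creb3l4 over Creb3l1 lies below it in WT and above it in all 6 transgenic libraries.

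To ask whether the dominant negatives changed the members, counts were tested in 1 model of all groups (edgeR quasi-likelihood test, p adjusted by Benjamini and Hochberg over 15580 genes, called when under 0.05). All 4 members passed the filter on low counts. Levels given from here on are normalized counts, which are counts divided by the scaled library size, and log2 changes are those of the edgeR fit with their SE. Nothing in the labels says that the pools of a group were independent cohorts, so p-values measure the spread between these libraries.

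Creb3l2, the target of ACreb3l2, had 28682 and 28195 normalized counts for WT, 27212 and 26775 with ACreb3l2 alone, 18837 and 22833 with AXBP1 alone, and 21205 and 14044 with both transgenes. Both groups with AXBP1 lay below both groups without it, and the ACreb3l2 libraries were just below WT. In lobes with ACreb3l2 these counts may include reads of the transgene, so the endogenous gene was not measured apart. The log2 change in ACreb3l2/AXBP1 against WT was -0.69 (SE 0.175, adjusted p = 0.0428), and its size depended on the library of that group, at -0.43 without replicate 2 and -1.02 without replicate 1. This call was kept under 7 of 16 alternatives, and in 1 of 8 fits with a library removed. In AXBP1 the change was -0.45 (SE 0.175, adjusted p = 0.492). In ACreb3l2 it was -0.08, with a 95% confidence interval from -0.47 to 0.32 on the log2 scale (adjusted p = 0.874), an interval that holds changes of either direction.

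Averaged over both backgrounds, the AXBP1 transgene went with a log2 difference in Creb3l2 of -0.53 (SE 0.124, unadjusted p = 0.00218, adjusted p = 0.173). All 4 libraries that carry AXBP1 were below all 4 that do not, and the share of all genes with such a split was not counted. The difference was not called in the fit as designed, where 5 of 15580 genes were (0.0321%), and passed under 5 of 16 alternatives. The 5 genes were 328 with DESeq2, 598 and 491 with FPKM at a pseudocount of 0.1 and 1, 1277 with no filter and 233 without ACreb3l2/AXBP1 replicate 1, which are those alternatives. The ACreb3l2 transgene averaged over both backgrounds gave -0.16 (SE 0.124, adjusted p = 0.49), with overlapping libraries. The order of the groups was WT, ACreb3l2, AXBP1 and ACreb3l2/AXBP1, and the last pair overlapped. None of these neighbours differed in a called test, the closest being ACreb3l2 against AXBP1 at 0.37 (SE 0.175, adjusted p = 0.56).

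Creb3 had 3398 and 4140 normalized counts for WT, 2573 and 2562 with ACreb3l2 alone, 3039 and 3057 with AXBP1 alone, and 2435 and 2087 with both transgenes. No group overlapped another, in the order WT, AXBP1, ACreb3l2 and ACreb3l2/AXBP1. The share of all genes with groups so separated was not counted. On the FPKM scale, where values of AXBP1 libraries were lower over all genes, AXBP1 and ACreb3l2 overlapped (41.3 and 43.9 FPKM against 45.1 and 41.3). Creb3 fell by 0.55 on the log2 scale in ACreb3l2 (SE 0.108, adjusted p = 0.0244) and by 0.74 in ACreb3l2/AXBP1 (SE 0.108, adjusted p = 0.00446). The latter call was kept under all 16 alternatives and the former under 8, with -0.41 when WT replicate 2 was left out. In AXBP1 the log2 change was -0.31 (SE 0.108, adjusted p = 0.484). Averaged over both backgrounds, Creb3 fell by 0.49 with ACreb3l2 (SE 0.0765, adjusted p = 0.00506), a call kept under all 16 alternatives, and the difference with AXBP1 was -0.24 (SE 0.0765, adjusted p = 0.217).

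Creb3 counts carry a limit, as exons of Creb3 share 360 bases (15.2% of its exon bases) with Tln1 and 133 bases (5.61%) with Gba2, both on the opposite strand, and whether counting used strand is not given in the sources used here, although the study's methods name a stranded library kit. Tln1, which codes for the adhesion protein talin, had a log2 change of -0.05 in ACreb3l2 (SE 0.091, adjusted p = 0.825) and -0.16 in ACreb3l2/AXBP1 (SE 0.091, adjusted p = 0.278). Gba2, a glucosylceramidase, had -0.21 (SE 0.136, adjusted p = 0.486) and -0.39 (SE 0.137, adjusted p = 0.0943) in the same comparisons. Neither gene was called, and these changes over whole genes do not show those of the shared bases. The share of shared reads in Creb3 counts was not tested. No other member overlapped an annotated gene.

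Creb3l1 was counted from 78 to 315 times per library. It had 174.8 and 343.6 normalized counts for WT, 138.5 and 116.5 with ACreb3l2 alone, 129.5 and 123.5 with AXBP1 alone, and 106.8 and 69.24 with both transgenes. Every transgenic library was below both WT libraries, and the second WT library had 1.96 times the level of the first. The raw counts behind this pair, 180 and 315, have exact Poisson 95% intervals of 155 to 208 and 281 to 352, which cover counting error only and do not overlap. In ACreb3l2/AXBP1 Creb3l1 fell by 1.56 on the log2 scale (SE 0.322, adjusted p = 0.0215), a call lost without WT replicate 2 (a difference of -50%, adjusted p = 0.0961) and without ACreb3l2/AXBP1 replicate 2 (adjusted p = 0.18). The changes in ACreb3l2 and AXBP1 were -1.01 (SE 0.315, adjusted p = 0.143) and -1.03 (SE 0.316, adjusted p = 0.474). The former was called by DESeq2 (adjusted p = 0.0357), with no filter on low counts (4.35e-05) and without WT replicate 1 (0.0163). Without WT replicate 2 the differences were -0.45 and -0.47. The change in AXBP1 was called under 1 of 16 alternatives, edgeR with no filter on low counts (adjusted p = 6.23e-05). The ACreb3l2 and AXBP1 groups overlapped, and their difference of 0.01 had a 95% interval from -0.72 to 0.75.

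Creb3l4 was the scarcest member in WT. It had 93.25 and 100.3 normalized counts for WT, 121.3 and 115.4 with ACreb3l2 alone, 113.7 and 102.8 with AXBP1 alone, and 109.8 and 164.2 with both transgenes. All 6 transgenic libraries lay above WT, mostly by little, and the second ACreb3l2/AXBP1 library was the highest. Its log2 changes against WT were 0.29 with ACreb3l2 alone (SE 0.223, adjusted p = 0.557), 0.16 with AXBP1 alone (SE 0.225, adjusted p = 0.806) and 0.50 with both (SE 0.221, adjusted p = 0.16). None was called, and none became so under any of the 16 alternatives. With ACreb3l2/AXBP1 replicate 2 left out the last was 0.17, and with replicate 1 left out 0.76. In the FPKM table AXBP1 overlapped WT for this gene.

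**Figure D3:**
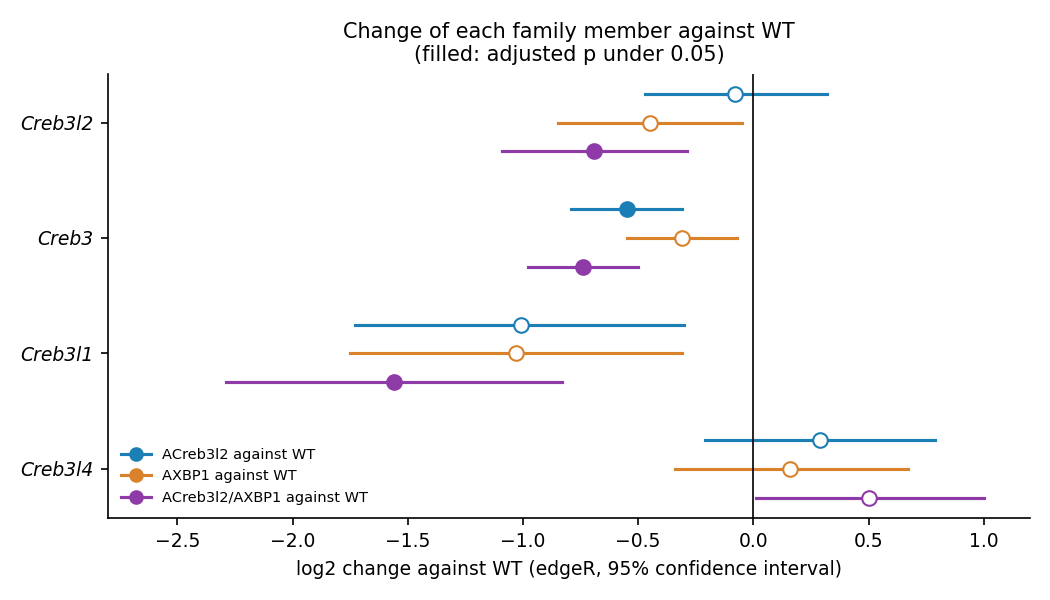
Log2 change against WT (x axis, edgeR, dots with 95% confidence intervals) for each member (y axis) in the 3 transgenic groups, with filled dots for an adjusted p under 0.05. In ACreb3l2/AXBP1 the dots of Creb3, Creb3l1 and Creb3l2 are filled and lie at -0.74, -1.56 and -0.69, and in ACreb3l2 only that of Creb3 is filled, at -0.55.

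These counts of called members were read against those of all genes. In ACreb3l2 against WT, 1 of 4 members was called lower, against 2.5% of all genes tested. In ACreb3l2/AXBP1 against WT it was 3 of 4, against 6.99%, and for the ACreb3l2 transgene averaged over both backgrounds it was 1 of 4, against 4.99%. The last share rested on 777 genes, beside 274 called higher, and with library size alone on 443, beside 384 higher. The 1089 genes called lower behind the 6.99% were 194 without ACreb3l2/AXBP1 replicate 2, 297 without WT replicate 2, and 546 beside 1104 higher with library size alone. The 389 genes behind the 2.5% were 150 without WT replicate 2, 151 and 126 without ACreb3l2 replicates 1 and 2, and 242 and 238 without AXBP1 replicates 1 and 2. The 777 genes behind the 4.99% were 479 without WT replicate 2, 511 and 438 without ACreb3l2 replicates 1 and 2, 367 and 345 without AXBP1 replicates 1 and 2, and 394 without ACreb3l2/AXBP1 replicate 2. In AXBP1 against WT edgeR called 0 members and 0 of 15580 genes (0%), although 3 members and 1554 genes had an unadjusted p under 0.05, and DESeq2 called 73 genes, none of them a member. No member was called in ACreb3l2 against AXBP1 (0.719% of genes called), in ACreb3l2/AXBP1 against AXBP1 (0.623%), or in ACreb3l2/AXBP1 against ACreb3l2 (0%). In each of these edgeR gave 1 member an unadjusted p under 0.05, as it did 1478, 1736 and 1112 of all genes. DESeq2 called 0, 1 and 1 members, and 258, 283 and 36 of all genes, in that order. In the last of these comparisons Creb3l2 differed by -0.62 (SE 0.175, unadjusted p = 0.00705, adjusted p = 0.688). All 4 members had groups that did not overlap WT in normalized counts in each of the 3 comparisons, as had 45.5% of genes tested with ACreb3l2 alone, 46.1% with AXBP1 alone and 58.3% with both. The comparisons with WT share the WT libraries and are not independent.

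The interaction asked whether the change in ACreb3l2/AXBP1 departed from the sum of the changes of the single transgenes. It was 0.12 for Creb3 (95% interval from -0.22 to 0.46), 0.49 for Creb3l1 (from -0.55 to 1.52), -0.17 for Creb3l2 (from -0.73 to 0.40) and 0.05 for Creb3l4 (from -0.65 to 0.75). No member and no gene was called (0%, with 386 genes at an unadjusted p under 0.05 in edgeR and 4 called by DESeq2). The intervals are wide beside the changes themselves.

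Genes that process or control CREB3 proteins were listed next. Of 12 listed, 10 were tested, and edgeR called 0 in ACreb3l2 and 0 in AXBP1, where 5 and 2 had an unadjusted p under 0.05 and DESeq2 called 1 each. In ACreb3l2/AXBP1 1 was called higher and 2 lower, as were 477 and 1089 of all 15580 genes, and the median log2 change of the 10 was 0.04, beside 0.01 over all genes. All 3 calls were lost without WT replicate 2 and without ACreb3l2/AXBP1 replicate 2, where edgeR called 0 of the 10. Crebrf, which codes for a factor known to restrain CREB3, had 5134 and 4592 normalized counts for WT and 6435 and 8072 in ACreb3l2/AXBP1, a rise of 0.58 on the log2 scale (SE 0.116, adjusted p = 0.0166). Syvn1, the ubiquitin ligase of ER-associated degradation, had 1204 and 1740 in WT and 928.6 and 840.6 in ACreb3l2/AXBP1, and fell by 0.73 (SE 0.151, adjusted p = 0.0193). Tbx19, which codes for Tpit, the factor that specifies POMC cells, had 21336 and 23105 in WT and 14474 and 9604 in ACreb3l2/AXBP1, and fell by 0.88 (SE 0.184, adjusted p = 0.0245). In each of these 3 genes the second ACreb3l2/AXBP1 library was farther from WT than the first. The protease genes Mbtps1 and Mbtps2 were not called. Creb3l3 (CREBH), the liver member of the family, had from 1 to 23 counts per library and was not tested, and Tm4sf20 had 0 counts in all 8 libraries, which allows up to 3 counts in each.

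Related bZIP factors of the CREB, ATF, XBP and NFE2 groups, listed with the ER stress sensor Ern1, were called lower or not at all. Of 17 genes listed 16 were tested. In ACreb3l2 2 were called lower and in ACreb3l2/AXBP1 5, beside 2.5% and 6.99% of all genes, and in AXBP1 edgeR called 0 (7 at an unadjusted p under 0.05, 2 called by DESeq2), with medians of -0.16, -0.16 and -0.07 beside 0.01, 0.01 and 0.00 over all genes. Without WT replicate 2, and likewise without ACreb3l2/AXBP1 replicate 2, the 5 became 2, and without the latter library 4 were called in ACreb3l2 and 1 in AXBP1. Atf4, the effector of the integrated stress response, had 7729 and 8435 normalized counts for WT, 4434 and 4079 with ACreb3l2 alone, 4675 and 4605 with AXBP1 alone, and 3466 and 2820 with both transgenes. It fell by 0.92 in ACreb3l2 (SE 0.106, adjusted p = 0.0021) and by 1.36 in ACreb3l2/AXBP1 (SE 0.106, adjusted p = 0.000364), and differed by -0.80 in AXBP1 (SE 0.106, adjusted p = 0.0769). All 6 of its transgenic libraries were below WT. Ddit3 (CHOP) fell by 0.76 in ACreb3l2 (SE 0.106, adjusted p = 0.00481) and by 0.83 in ACreb3l2/AXBP1 (SE 0.106, adjusted p = 0.00258). In ACreb3l2/AXBP1 Atf5 fell by 0.64 (SE 0.12, adjusted p = 0.0132), Ern1 by 0.54 (SE 0.11, adjusted p = 0.0169), and Atf6, which like the CREB3 proteins is cut in the Golgi, by 0.28 (SE 0.078, adjusted p = 0.0474).

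Genes known from other work as targets of a CREB3 family factor were called lower in part in the lobes with ACreb3l2. Of 15 listed, 14 were tested (Gcm1, a placental gene, had 0 counts in all 8 libraries). In ACreb3l2 6 were called lower and in ACreb3l2/AXBP1 9, with none higher, beside 2.5% and 6.99% of all genes called lower. Atf5, called in ACreb3l2/AXBP1, is on this list and on that of related bZIP factors, and is counted in both. In AXBP1 edgeR called 0 (5 at an unadjusted p under 0.05, 0 called by DESeq2). Without WT replicate 2 the counts were 5 and 6, and without ACreb3l2/AXBP1 replicate 2 they were 7 and 6. The median log2 change was -0.50 in ACreb3l2, -0.60 with both transgenes and -0.24 in AXBP1, and 11, 13 and 12 of the 14 were below 0, beside 48.2%, 48.3% and 49.7% of all genes. The list was made with earlier results of these libraries known, and its direction is no independent evidence.

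Among the called genes of this list, Kdelr2, a receptor that returns ER proteins from the Golgi, had 9387 and 11178 normalized counts for WT, 4692 and 4799 with ACreb3l2 alone, 8717 and 8604 with AXBP1 alone, and 5036 and 4267 with both transgenes. Both groups with ACreb3l2 were thus far below both without it. It fell by 1.12 in ACreb3l2 (SE 0.107, adjusted p = 0.000961) and by 0.87 against AXBP1 (SE 0.108, adjusted p = 0.00709). Sec24d, a coat protein of COPII vesicles that leave the ER, had 4196 and 5008 for WT, 2227 and 2215 with ACreb3l2 alone, 3972 and 3831 with AXBP1 alone, and 2183 and 1809 with both transgenes. It fell by 1.05 in ACreb3l2 (SE 0.11, adjusted p = 0.00136) and by 0.81 against AXBP1 (SE 0.111, adjusted p = 0.0103). The COPII genes Sec31a and Sec23a fell by 0.85 (SE 0.108, adjusted p = 0.00334) and 0.58 (SE 0.0831, adjusted p = 0.00576) in ACreb3l2. Arf4, a small GTPase of the Golgi, fell by 0.72 (SE 0.0806, adjusted p = 0.00187) and Kdelr3 by 0.94 (SE 0.167, adjusted p = 0.016). Sec31a, Sec23a and Arf4 were also called lower in ACreb3l2 than in AXBP1, at -0.74, -0.53 and -0.47 (adjusted p = 0.0144, 0.0198 and 0.029), and Kdelr3 was not (-0.68, adjusted p = 0.142). Herpud1, an ER membrane protein of ER-associated degradation, was called in ACreb3l2/AXBP1, at -0.56 (SE 0.091, adjusted p = 0.00724).

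**Figure D4:**
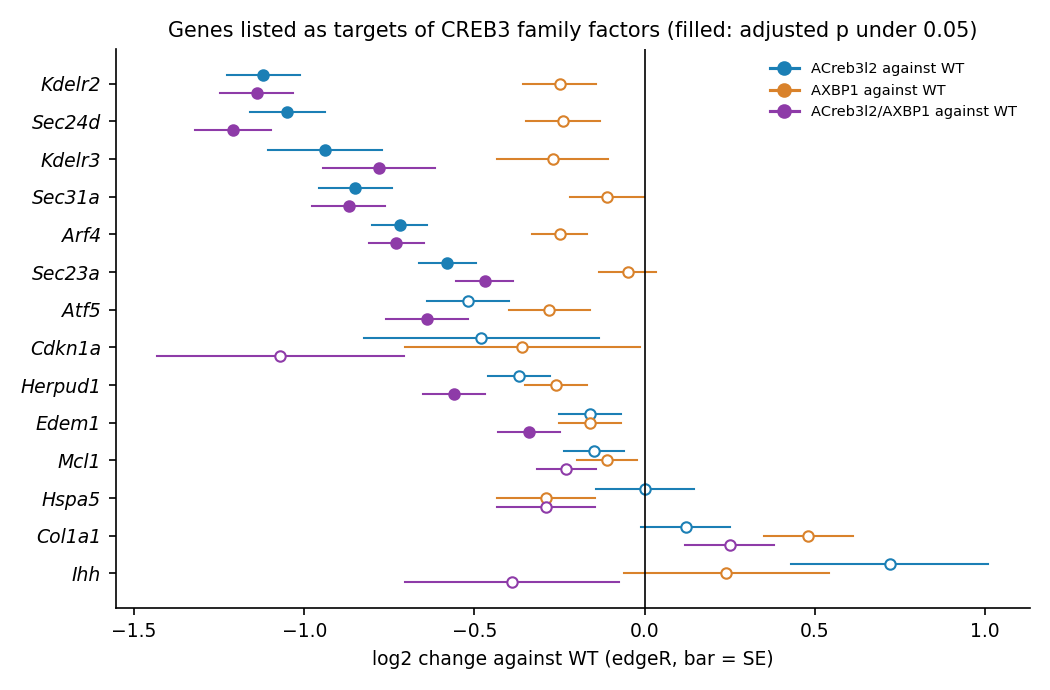
Log2 change against WT (x axis, edgeR, bars of 1 SE) of 14 genes listed as targets of CREB3 family factors (y axis, ordered by the change in ACreb3l2), with filled dots for an adjusted p under 0.05. The dots of Kdelr2, Sec24d, Kdelr3, Sec31a, Arf4 and Sec23a are filled in ACreb3l2 and in ACreb3l2/AXBP1, and no dot of AXBP1 is filled.

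Of 14027 coding genes tested, those with log2 CPM most like each member over the 8 libraries were found by Pearson's r. For Creb3 they were Pprc1, Trim27 and Krtcap2 (r = 0.998 each), for Creb3l1 Cars and Taf10 (0.995 and 0.994), for Creb3l2 Hspa2, Kpna2 and Krt18 (0.994, 0.983 and 0.982), and for Creb3l4 Lmo4, Zfp521 and Pdk4 (0.973, 0.964 and 0.962). Between members, r was 0.933 for Creb3 with Creb3l1, 0.734 for Creb3l1 with Creb3l2, 0.629 for Creb3 with Creb3l2, and from -0.798 to -0.718 for Creb3l4 with the others. The 8 points come from 4 groups and share their libraries and depth, so these values describe the libraries and carry no test.

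**Figure D5:**
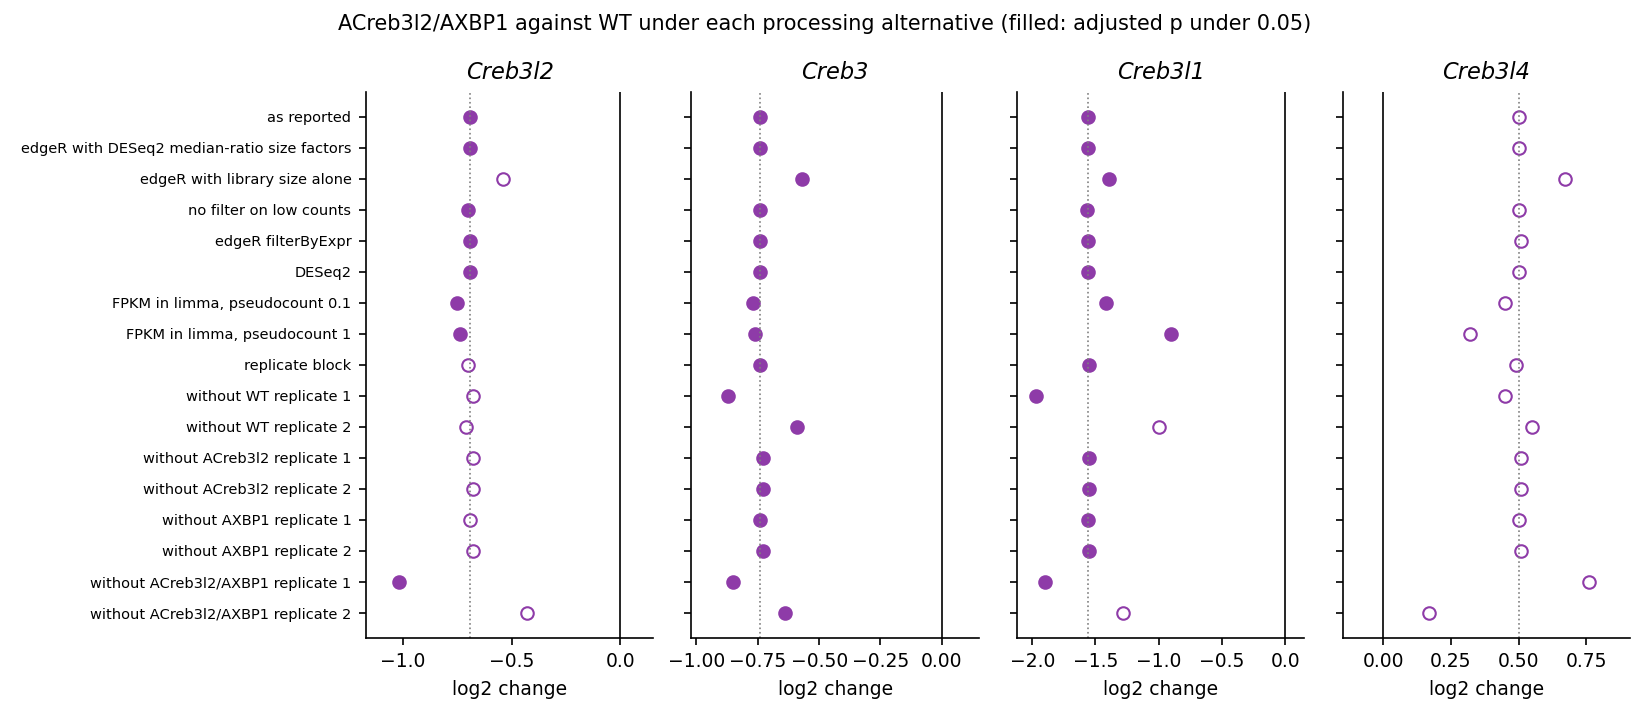
Log2 change in ACreb3l2/AXBP1 against WT (x axis, 1 panel per member, each with its own scale) as reported and under each of 16 processing alternatives (y axis), with filled dots for an adjusted p under 0.05 and a dotted line at the reported value. Creb3 stays filled throughout, Creb3l2 runs from -1.02 to -0.43 when 1 of its ACreb3l2/AXBP1 libraries is left out, and no dot of Creb3l4 is filled.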

How the data were processed

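RNA-seq libraries of pooled neuro-intermediate lobes were grouped by labelled genotype. As deposited, the count table holds unscaled whole reads for each Ensembl gene. Per the study's methods the authors trimmed reads with Trimmomatic, used Tophat for alignment to mm10 and HTSeq-count for counting, while a software list names another aligner, and the annotation and strand setting are not given in the sources used here. The labels state ribosomal depletion and the methods a stranded mRNA kit. The deposited FPKM values were estimated by the authors, who list cufflinks.

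Total counts ran from 28256086 to 37988912 per library. Genes with a mean median-ratio-normalized count above 20 (15580 genes, 99.86% of counts) were fitted in edgeR 4.0.16 (R 4.3.3) with TMM scaling, a mean per group and robust quasi-likelihood tests, after a check on simulated data. The common biological coefficient of variation was 0.107. Changes are coded as the first named group minus the second. FPKM were used for levels between genes and, with pseudocounts of 0.1 and 1 on the log2 scale, in limma 3.58.1 as alternatives, and DESeq2 1.42.0 was another. log2 CPM used a prior count of 2. The members and the gene lists were chosen with earlier results of these data known. Of each list, counts are given for all genes and values for at most 8 called against WT in any group, by lowest adjusted p, with the 3 coding genes most like each member (1 of those of Creb3l1 is not reported here). Values of Tln1, Gba2, Mbtps1, Mbtps2, Creb3l3, Tm4sf20 and Gcm1 are given for overlap, role or low counts. Protein sequences are not used here. Intervals of counts cover counting error only.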

Additional observations from a re-analysis of the deposited data

How the results depend on the processing

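With 16 alternatives, 521 of 576 changes of members kept their direction and their side of the threshold, 19 lost a call, 24 gained one and 12 turned, none of these called in either fit. The number of members called in ACreb3l2 against WT (1) was 2 with no filter on low counts and with DESeq2, 0 with FPKM at either pseudocount, 0 with the replicate block, and from 0 to 2 when 1 library was left out. With no filter it was 2 in AXBP1 against WT (0 as designed), 1 in ACreb3l2 against AXBP1 (0), and 1 in ACreb3l2/AXBP1 against AXBP1 and against ACreb3l2 (0), the last 2 also with DESeq2. For the ACreb3l2 transgene averaged (1) it was 2 with no filter and with DESeq2, and from 1 to 2 with a library left out. For the AXBP1 transgene averaged (0) it was 3 with no filter, 2 with DESeq2 and with FPKM at either pseudocount, and from 0 to 1 with a library left out. In ACreb3l2/AXBP1 against WT (3) it was 2 with library size alone and with the replicate block, as Creb3l2 was lost, and from 1 to 3 with a library left out. The cause was not tested. With no filter, 1455 genes were called in ACreb3l2 against WT and 628 in AXBP1 against WT (473 and 0 as designed). This fit called 730 in ACreb3l2 against AXBP1, 755 in ACreb3l2/AXBP1 against AXBP1 and 513 against ACreb3l2 (112, 97 and 0 as designed). DESeq2 called 751 in ACreb3l2 against WT, and 258, 283 and 36 in those comparisons between transgenic groups. For the ACreb3l2 transgene averaged, 2203 genes were called with no filter and 1341 with DESeq2 (1051 as designed). Counts of listed genes without WT replicate 2 or ACreb3l2/AXBP1 replicate 2 were added after seeing the data.

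The FPKM of AXBP1 libraries were lower in general: the median log2 change of all genes against WT was -0.16 at a pseudocount of 0.1, and 0.18 for ACreb3l2 against AXBP1. Creb3 in ACreb3l2 against AXBP1 turned to 0.02 on this scale, or -0.16 relative to the median. With library size alone the median in ACreb3l2/AXBP1 against WT was 0.17 (0.01 as designed), and relative to it Creb3l2 differed by -0.71 and Creb3 by -0.75.

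Replicate numbers did not pair the libraries (r of deviations from -0.197 to 0.0887). With the replicate block, edgeR called 321 genes in ACreb3l2 (473 as designed) and 1113 in ACreb3l2/AXBP1 (1566), and adjusted p rose to 0.0502 for Creb3 in the former and to 0.0571 for Creb3l2 in the latter.

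With 1 library left out, changes that turned ranged from -0.12 to 0.13 (Creb3l1, ACreb3l2 against AXBP1), -0.57 to 0.02 (Creb3l2, ACreb3l2/AXBP1 against AXBP1), -0.11 to 0.47 (Creb3l4, ACreb3l2/AXBP1 against ACreb3l2), and, for the interaction, -0.03 to 0.26 (Creb3), -0.08 to 0.90 (Creb3l1), -0.49 to 0.10 (Creb3l2) and -0.27 to 0.31 (Creb3l4). A group left with 1 library was assumed to vary like the others. Counts of 78 to 315 limit Creb3l1 and Creb3l4.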

Other observations

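Creb3l3, the liver member of the family, was listed at 10 and 19 counts for WT, 4 and 2 with ACreb3l2 alone, 23 and 14 with AXBP1 alone, and 3 and 1 with both transgenes. The 4 libraries that carry ACreb3l2 were all below the 4 that do not, a split whose share over all genes was not counted. The gene did not pass the filter and was not tested, and no fold is given at these counts.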
